A study of Homo sapiens with 6 samples.

Results

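The subject is a set of 10 immediate-early genes, FOS, FOSB, FOSL1, JUN, JUNB, JUND, EGR1, ATF3, IER2 and IER3, followed library by library for an imprint of cell dissociation or sorting. They were found by symbol among the 58395 genes of the table, and all 10 were present. The cells were M14, an established human melanoma cell line, cultured without attachment so that they formed melanospheres. All 6 libraries come from spheres that had been broken up by mechanical force, stained with a CD20 antibody and sorted by flow cytometry, and the labels name no treatment. The groups were 3 CD20-positive and 3 CD20-negative libraries, with replicate numbers 1 to 3 in each. No library in the series was made from undissociated or unsorted spheres, so a response common to all 6 has no baseline here. Nothing in the labels says that the replicates were separate cultures, so p-values measure only the spread between these libraries, which may be technical.

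Immediate-early genes are transcribed within minutes of a stimulus and need no new protein synthesis for it. Growth factor signals reach them through ERK, the serum response factor SRF and its ELK partners at CArG boxes, and through CREB and ATF factors at cyclic AMP response elements. FOS and JUN proteins pair through leucine zippers into AP-1, a transcription factor whose make-up shifts as the family members come and go. Their mRNAs are short-lived, and mechanical or enzymatic separation of tissue is a well-known way of inducing them.

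Promoter sequence was found for 8 of the 10 genes in RefSeq (GRCh38.p14), as windows from 250 bases before to 50 bases after the start. FOSL1 and IER3 were not matched. Stretches ending before the first annotated transcript base are shown for FOS, EGR1 and FOSB, whose levels differed widely between libraries, and for the abundant JUNB. The short JUN stretch lies upstream of the RefSeq start used for its window but inside the longer transcript span that GENCODE annotates. Capitals mark the motifs found among 7 searched on both strands: TGACTCA, TGACGTCA, TGACATCA, the shorter TGACGT (part of TGACGTCA), TATAAA, GCGTGGGCG and the CArG box. The first 3 are AP-1 or ATF/CREB sites, and GCGTGGGCG is an EGR1 site.
FOS, chr14:75278578-75278773, plus strand: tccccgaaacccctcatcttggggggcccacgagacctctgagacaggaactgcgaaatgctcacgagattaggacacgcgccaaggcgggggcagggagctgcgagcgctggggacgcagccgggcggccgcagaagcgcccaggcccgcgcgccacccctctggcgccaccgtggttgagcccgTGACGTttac
EGR1, chr5:138465229-138465478, plus strand: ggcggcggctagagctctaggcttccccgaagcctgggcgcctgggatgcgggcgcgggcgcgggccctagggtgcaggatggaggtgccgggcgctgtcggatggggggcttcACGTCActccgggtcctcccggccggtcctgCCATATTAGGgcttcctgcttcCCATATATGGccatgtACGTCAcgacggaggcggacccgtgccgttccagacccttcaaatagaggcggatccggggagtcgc
FOSB, chr19:45467746-45467994, plus strand: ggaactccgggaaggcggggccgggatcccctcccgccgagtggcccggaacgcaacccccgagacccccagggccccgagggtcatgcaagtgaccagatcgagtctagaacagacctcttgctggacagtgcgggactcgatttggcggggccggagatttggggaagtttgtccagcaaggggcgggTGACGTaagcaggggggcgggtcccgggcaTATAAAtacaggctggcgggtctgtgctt
JUNB, chr19:12791236-12791485, plus strand: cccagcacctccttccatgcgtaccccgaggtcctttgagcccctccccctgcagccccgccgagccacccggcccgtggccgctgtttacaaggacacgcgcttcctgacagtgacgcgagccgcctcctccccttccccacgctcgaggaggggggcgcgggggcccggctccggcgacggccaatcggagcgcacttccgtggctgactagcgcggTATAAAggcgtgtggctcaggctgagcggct
JUN, chr1:58784096-58784125, minus strand: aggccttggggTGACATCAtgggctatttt
EGR1 carried 2 CArG boxes, at -105 to -96 and -83 to -74 from its start, and 2 TGACGT sites. It was the only matched member with a CArG box, a motif held by 1.29% of the 35116 promoter windows. The TGACGT site was found in EGR1, FOS, FOSB and JUND (7.98% of all windows), with TGACGTCA in JUND only (1.85%). TGACATCA was found in JUN, of which a short stretch around that site is shown, and in 1 of the 2 windows of ATF3 (2.61%). TATAAA was found in FOS, FOSB, JUNB and ATF3 (11.5%), and TGACTCA (4.95%) and GCGTGGGCG (0.795%) in none of the 8. In FOS the TATAAA lies at -33 to -28, past the stretch shown, which ends at -55. A motif is a run of letters, not a bound site, and these letters may lie outside the windows.

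Levels are given as FPKM, a fragment count divided by the exon length of the gene in kilobases and by a scaling size per library. Libraries held 15651172 to 17915936 fragments as recovered from the values. The scaling size was below the recovered fragments in CD20-positive replicates 1 and 3 and above them in the other libraries. Relative to scaling by recovered fragments, this raises values in CD20-positive replicates 1 and 3 and lowers them elsewhere. How the sizes were set was not tested. MS4A1, the gene of CD20, averaged 1.16 ± 0.170 FPKM in the CD20-positive group against 0.297 ± 0.0940 FPKM in the other (SD, n = 3; exact permutation test, two-sided, p = 0.1, the smallest possible with 3 against 3). Mitochondrially encoded genes took 11.9 to 20.6% of fragments in CD20-positive and 4.25 to 5.73% in CD20-negative libraries, and ribosomal protein genes 2.60 to 4.18% and 6.59 to 6.85%. Of 8 melanocytic markers only PMEL and MITF reached a mean of 1 FPKM, and SOX10 did not exceed 0.0717 and TYR 0.0207 FPKM, so most defining genes of the labelled lineage were near 0. Of 8 leukocyte markers 1 reached a mean of 1 FPKM. The highest value on that list was 2.03 FPKM, while PTPRC did not exceed 0.0116 FPKM. Fewer cells of a kind and less RNA per cell cannot be told apart in such bulk libraries.

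**Figure D1:**
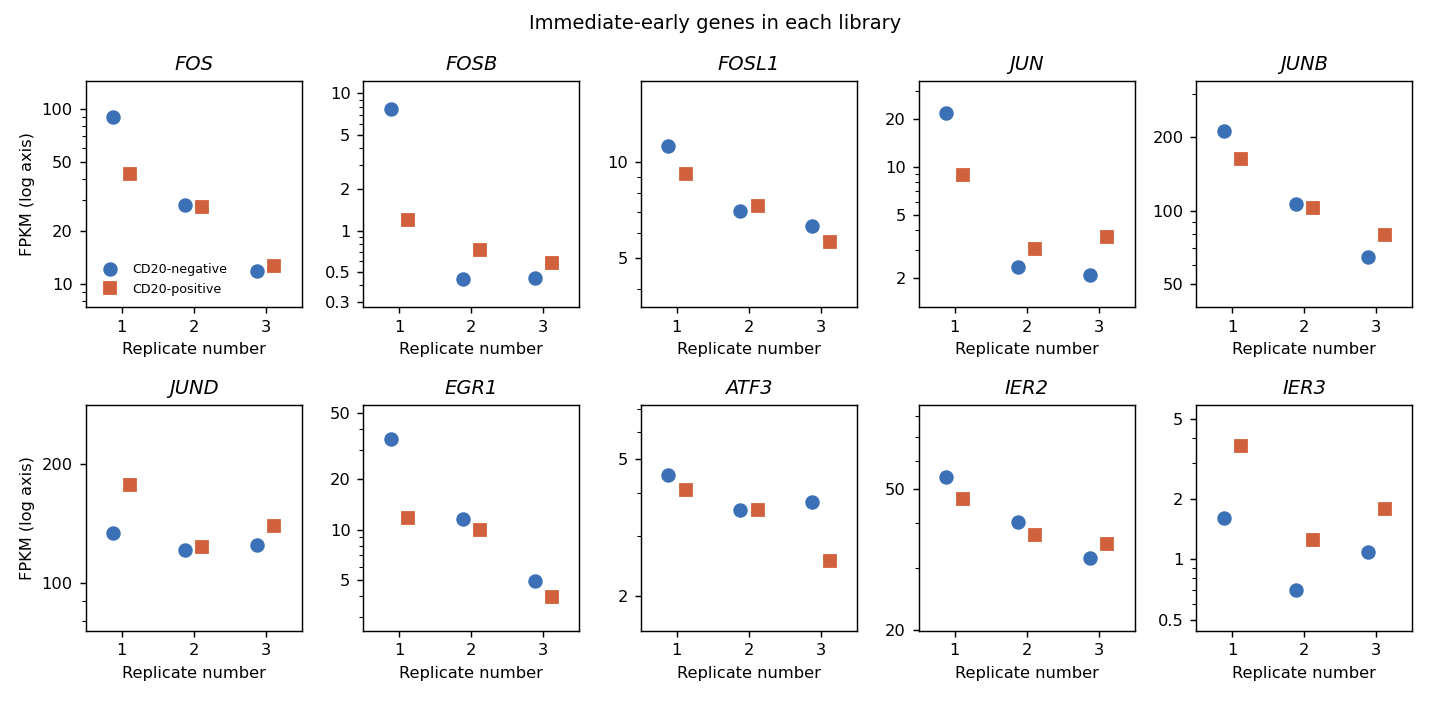
FPKM of each immediate-early gene (log axis) against replicate number, circles for CD20-negative and squares for CD20-positive libraries, 1 point per library. Replicate 1 is the highest of its group for each of the 10 genes in both groups, and CD20-negative replicate 1 stands far above the rest for FOS (90.6), FOSB (7.67), JUN (21.7) and EGR1 (35.1).

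No member differed between the sorted fractions in the limma fit without a replicate block, whereas the replicate number separated the libraries for several. Of the 10 members 0 were called at an adjusted p under 0.05, with 0 at an unadjusted p under 0.05, against 0.0076% of the 13155 genes tested (1 gene, the mitochondrial tRNA gene MT-TE, named after its values were seen). With the replicate number as a block 0 of 10 were called, against 5.83% of all genes. The ranges of the fractions overlapped for each of the 10, where 15% of tested genes had no overlap. In exact permutation tests of the mean FPKM (two-sided, 3 against 3) p lay between 0.2 and 1. All 10 had a mean of at least 1 FPKM and were tested. Gene positions are those of GENCODE release 29 on GRCh38.

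FOS (chromosome 14, 75278774 to 75282230), the founding partner of JUN in AP-1, measured 90.6, 28.4 and 11.7 FPKM in CD20-negative replicates 1, 2 and 3 and 42.6, 27.7 and 12.6 FPKM in the CD20-positive ones. The fractions thus lay side by side in replicates 2 and 3 and apart in replicate 1, where the CD20-negative library held 2.13 times the CD20-positive value. The log2 change was -0.34 with a 95% interval from -2.07 to 1.40 (limma, adjusted p = 0.92), and leaving out CD20-negative replicate 1 turned it to 0.41. The highest FOS library exceeded the lowest 7.71 times within the CD20-negative group and 3.38 times within the CD20-positive group. That range in the CD20-negative group, 2.85 on the log2(FPKM + 1) scale, was as wide as or wider than in 99.9% of all tested genes, whose median was 0.345.

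FOSB, a paralog with a steep and brief induction (chromosome 19, 45467995 to 45475179), measured 7.67, 0.444 and 0.455 FPKM in CD20-negative replicates 1 to 3 and 1.20, 0.719 and 0.581 FPKM in the CD20-positive ones. One library, CD20-negative replicate 1 with 801 recovered fragments, stood apart from the other 5, which held 44 to 101. Its log2 change between fractions was -0.54 (95% interval -2.12 to 1.05; limma, adjusted p = 0.84), and 0.32 without that library. FOSB lies within the span of ERCC1 on the opposite strand, but their annotated exons share 0 bases. FOSL1 (chromosome 11, 65892049 to 65900573), which encodes FRA-1, a FOS protein with a slower course that is common in invasive tumour cells, varied less. It measured 11.2, 7.01 and 6.30 FPKM in CD20-negative and 9.19, 7.31 and 5.63 FPKM in CD20-positive replicates 1 to 3. Same-numbered FOSL1 libraries differed by at most 1.22 times (log2 change -0.12, 95% interval -0.69 to 0.46).

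JUN (chromosome 1, 58780788 to 58784327), an intronless gene whose product forms the other side of AP-1, was also far higher in CD20-negative replicate 1 than in any other library. It measured 21.7, 2.34 and 2.08 FPKM in CD20-negative and 8.84, 3.03 and 3.59 FPKM in CD20-positive replicates 1 to 3. In replicate 1 the CD20-negative library was 2.46 times the CD20-positive one, and in replicates 2 and 3 the CD20-positive library was 1.29 and 1.72 times the CD20-negative one. The log2 change of -0.12 (95% interval -1.96 to 1.72) became 0.82 without CD20-negative replicate 1 (limma, adjusted p = 0.83).

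JUNB (chromosome 19, 12791496 to 12793315), also intronless and a brake on JUN in many settings, stood at a far higher level per kilobase than JUN. It measured 212, 107 and 64.4 FPKM in CD20-negative and 163, 103 and 79.4 FPKM in CD20-positive replicates 1 to 3, so that same-numbered JUNB libraries lay closer to each other than to the rest of their fraction. The log2 change was -0.04 (95% interval -1.13 to 1.04). HOOK2, on the other strand, shares 14.2% of the JUNB exonic bases and was at 4.99 to 11.05 FPKM. JUND (chromosome 19, 18279760 to 18281622), the JUN paralog that is expressed at a steady level in most cells, had the highest mean of the 10 per kilobase. It measured 134, 121 and 125 FPKM in CD20-negative and 176, 123 and 139 FPKM in CD20-positive replicates 1 to 3. JUND had the narrowest CD20-negative range of the 10, 0.14 on the log2(FPKM + 1) scale, and a log2 change of 0.19 (95% interval -0.26 to 0.64). When libraries were scaled to their FPKM total it was -0.32, above the -0.41 to which that scaling takes the median gene.

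EGR1 (chromosome 5, 138465490 to 138469315), a zinc finger factor downstream of ERK and SRF whose CArG boxes are shown above, measured 35.1, 11.7 and 4.93 FPKM in CD20-negative and 11.7, 9.96 and 3.95 FPKM in CD20-positive replicates 1 to 3. The CD20-positive library was the lower one of each same-numbered pair, by 3.01, 1.17 and 1.25 times, and replicate 1 carried most of the difference. Replicates 2 and 3 are not told apart, and CD20-positive replicate 2 (9.96 FPKM) lay above CD20-negative replicate 3 (4.93 FPKM). The log2 change of EGR1 was -0.66 ± 0.66 (SE, 95% interval -2.22 to 0.90, limma, adjusted p = 0.794, and 0.289 with the replicate block). The blocked fit called it lower at a filter of 10 FPKM (limma, adjusted p = 0.000756, with 21.2% of all genes called), without replicate 3 (0.00886, with 2.52%) and with voom (0.00614, with 11.6%). It was the single member called in each of these fits, out of 5 members tested at the filter of 10 FPKM and 10 in the others. The standard errors of these fits for EGR1, 0.16, 0.22 and 0.20 in that order, came largely from the spread of other genes. The blocked fit of all libraries at the filter of 1 FPKM gave 0.29. EGR1 itself had pair differences of -1.51, -0.21 and -0.26 on the log2(FPKM + 1) scale in replicates 1, 2 and 3. Without CD20-negative replicate 1 its log2 change was 0.03.

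ATF3 (chromosome 1, 212565334 to 212620777), a stress-induced bZIP factor that often represses its targets, was low in each library. It measured 4.50, 3.57 and 3.77 FPKM in CD20-negative and 4.06, 3.55 and 2.54 FPKM in CD20-positive replicates 1 to 3 (log2 change -0.19, 95% interval -0.59 to 0.22; limma, adjusted p = 0.773). IER2 (chromosome 19, 13150415 to 13154908), which encodes a nuclear protein of the same early wave, measured 53.8, 40.3 and 31.9 FPKM in CD20-negative and 46.6, 37.0 and 34.9 FPKM in CD20-positive replicates 1 to 3. Its fractions differed by at most 1.15 times within a replicate number, and the log2 change was -0.07 (95% interval -0.60 to 0.47). If reads were counted without strand, IER2 could be mixed with an antisense gene that shares 30.8% of its exonic bases, listed at 0 in each library.

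IER3 (chromosome 6, 30743199 to 30744554), whose product protects from apoptosis and prolongs ERK signalling, went the other way from EGR1. It measured 1.61, 0.703 and 1.08 FPKM in CD20-negative and 3.66, 1.24 and 1.77 FPKM in CD20-positive replicates 1 to 3. The CD20-positive library was the higher one in each pair, by 2.28, 1.77 and 1.64 times, on 17 to 75 fragments a library. The log2 change was 0.55 ± 0.30 (SE; limma, adjusted p = 0.631, and 0.0605 with the replicate block). The blocked limma fit called it at an adjusted p of 0.0425, with 7.17% of all genes called, when libraries were scaled to their FPKM total without mitochondrial genes. IER3-AS1 shares 26.5% of its exonic bases and was listed at 0 in each library.

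**Figure D2:**
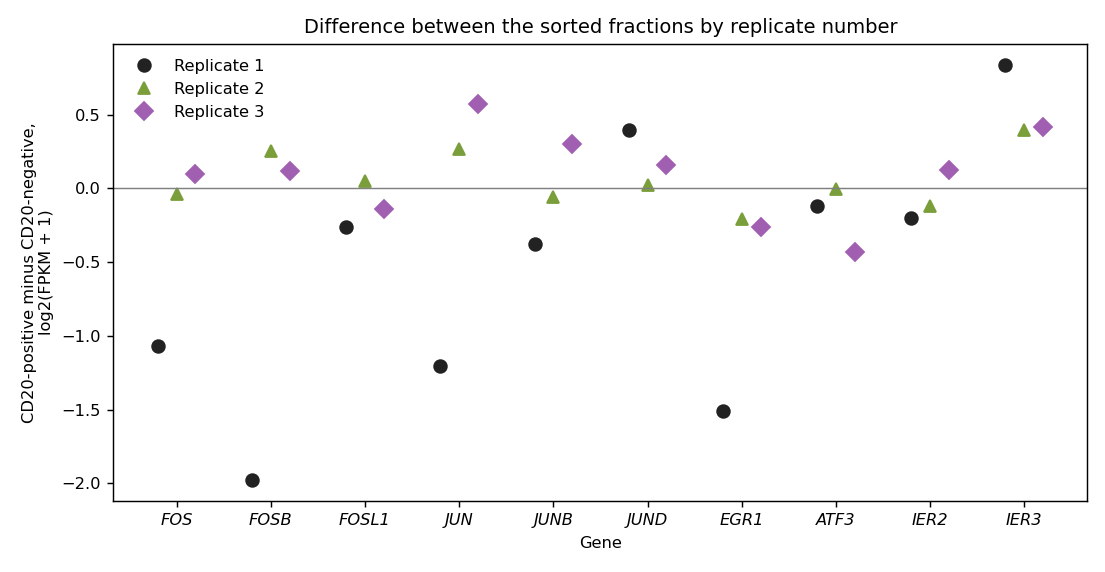
CD20-positive minus CD20-negative difference in log2(FPKM + 1) for each gene (x axis), 1 point per replicate number. For FOS, FOSB, JUN and EGR1 the replicate 1 difference lies between -1.98 and -1.07, while those of replicates 2 and 3 lie between -0.26 and 0.57.

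Across the members the median difference was -0.32 in replicate 1, 0.01 in replicate 2 and 0.12 in replicate 3, against medians of 0.00, 0.00 and 0.01 for all tested genes. The fitted change had a median of -0.12 over the 10 members, with 8 below and 2 above 0, and of 0.00 over all genes. Without CD20-negative replicate 1 the change of FOS, FOSB, FOSL1, JUN, JUNB, EGR1 and IER2 turned positive, and FOSB, JUN and IER3 then had no overlap between fractions, as did 24.1% of all tested genes without that library. The lowest CD20-positive value of JUN was 3.03 FPKM, against at most 2.34 in the remaining CD20-negative libraries, and for FOSB these were 0.581 and 0.455 FPKM. FOSB was among the genes tested only through the left-out library. None of these changes passed the threshold in limma.

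**Figure D3:**
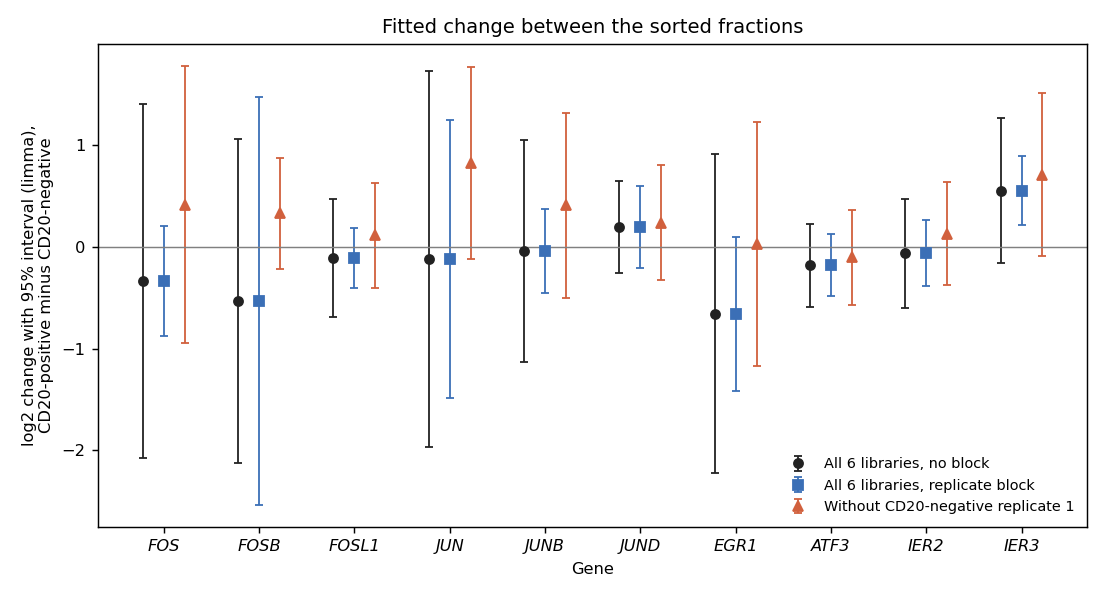
Fitted log2 change of each gene with its 95% limma interval, for all libraries without and with the replicate block and with CD20-negative replicate 1 left out. Each interval without the block includes 0, and the FOS estimate moves from -0.34 to 0.41 when that library is left out.

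The replicate number was then tested itself, as an F test of the block term in the paired limma fit, a comparison chosen after the values had been seen. It called 5 of the 10 members, FOS (adjusted p = 0.00619), JUNB (0.00627), IER3 (0.0269), FOSL1 (0.0335) and EGR1 (0.0479), against 16.2% of all tested genes. Each gene has only 2 residual degrees of freedom in that fit, so much of the spread behind these calls was also taken from other genes. JUN (limma, adjusted p = 0.16) and FOSB (0.432) were not called. Their replicate 1 libraries of the 2 fractions lay 2.46 and 6.37 times apart, and those of the called EGR1 and FOS 3.01 and 2.13 times. JUN was called with an ordinary prior (limma, adjusted p = 0.0123, with 6 members against 12.3% of all genes). It was also called without replicate 3 (limma, adjusted p = 6.86e-17, with 4 members against 15.3%). That last p rests on a spread that limma took almost wholly from other genes. JUN's own pair differences there were -1.21 and 0.27 on the log2(FPKM + 1) scale. IER2, ATF3 and JUND were not called either (limma, adjusted p = 0.104, 0.332 and 0.585). With voom the count was 5, against 24.4% of all genes. After scaling to the FPKM total it was 2, FOS and JUNB, against 8.06% of all genes, and these 2 were also the ones called without mitochondrial genes in that total, against 13.8%. With no filter 0 of 29267 genes were called (4062 at an unadjusted p under 0.05).

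Replicate 1 was the highest of its fraction in both groups for 10 of 10 members, a pattern shown by 31% of all tested genes. That count was 10 with TMM scaling, against 32.5% of all genes, and 9 with quantile normalisation (not JUND), against 30.1%. It was 7 with the FPKM total without mitochondrial genes (not JUND, EGR1 or ATF3), against 21.1%, and 5 with the full FPKM total (nor FOSL1 or IER2), against 13.2%. CD20-negative replicate 1 was the highest of all 6 libraries for 8 of the 10, against 23.2% of tested genes. The other 2 were JUND and IER3, with their highest value in CD20-positive replicate 1, and under the other scalings it was the highest library for 8 or 9 members, against 17.7 to 39.1% of tested genes. Replicate 3 was the lowest of both fractions for 5 of 10 members, FOS, FOSL1, JUNB, EGR1 and IER2, against 15.1% of tested genes. Without replicate 1, the blocked fit called FOS and EGR1 for the difference between replicates 2 and 3 (limma, adjusted p = 2.01e-08 and 2.83e-08, with 1.36% of all genes called), and JUNB was at 0.0540. In that fit too the spread came almost wholly from other genes, so these p-values do not measure agreement between the fractions. In the fit of all pairs EGR1 was at 0.0514 with TMM.

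**Figure D4:**
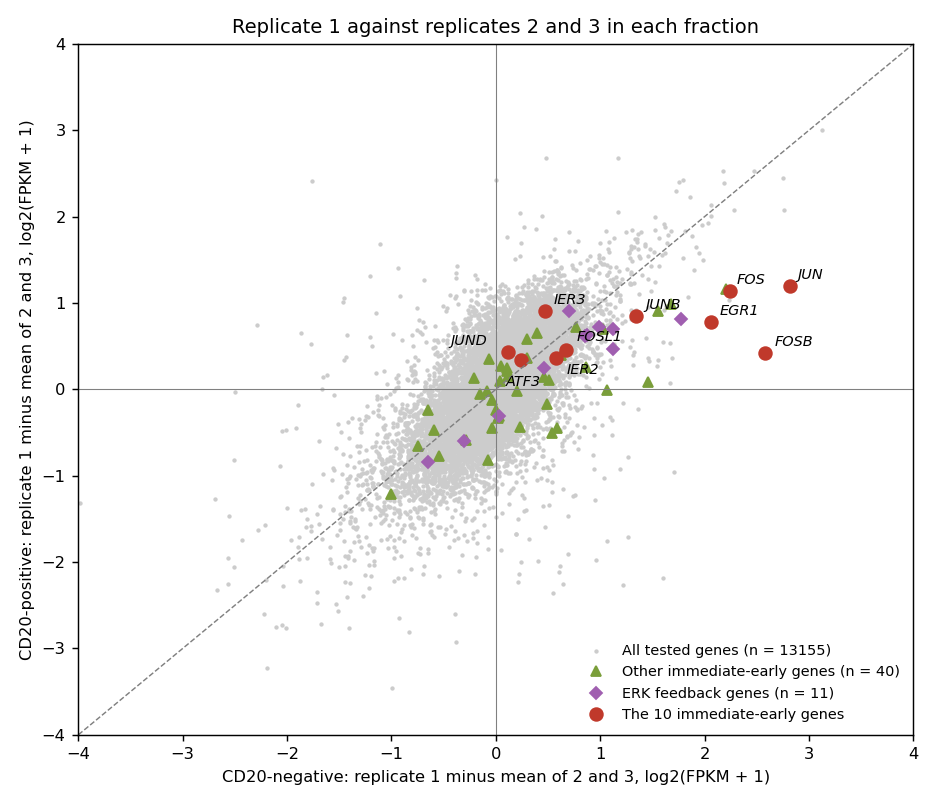
Replicate 1 minus the mean of replicates 2 and 3 in log2(FPKM + 1), CD20-negative libraries on the x axis and CD20-positive ones on the y axis, for all 13155 tested genes (grey) and the named lists. FOS, FOSB, JUN and EGR1 lie at 2.06 to 2.82 on the x axis and at 0.42 to 1.19 on the y axis, below the dashed line of equal difference.

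Among 46 other immediate-early genes, 40 were tested and 0 were called between the fractions with or without the block, with a median log2 change of 0.06. Closest to the threshold by p were IER5, a heat shock factor cofactor (12.6, 10.99 and 10.7 FPKM in CD20-negative replicates 1 to 3 and 15.2, 14.3 and 16.6 FPKM in the CD20-positive ones; limma, adjusted p = 0.454), CSRNP1 and PTGS2, and the highest levels per kilobase were those of MYC, RHOB and CEBPB. IER5 and CSRNP1 did not overlap between the fractions, the only 2 of the 40 (5%), a lower share than the 15% of all tested genes. The replicate number was called for 8 of the 40 (20%), a share near the 16.2% of all tested genes. These 8 are named after their values were seen, as single genes and not as a result about the list. DUSP1, the phosphatase that shuts off MAP kinases, measured 102, 41.4 and 28.0 FPKM in CD20-negative and 81.8, 49.7 and 37.6 FPKM in CD20-positive replicates 1 to 3 (limma, adjusted p = 0.0023). KLF2, a zinc finger factor responsive to flow, was at 19.03 and 12.7 FPKM in the replicate 1 libraries and at 3.28 to 5.45 FPKM elsewhere. CCN1, DUSP2, SGK1 and KLF4 were likewise highest in replicate 1 of both fractions, whereas FOSL2 and the orphan nuclear receptor NR4A2 were lowest there. Replicate 1 was the highest of both fractions for 16 of these 40 genes (40%), against 31% of all tested genes.

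Among feedback genes of ERK signalling the replicate number was called for 9 of 12 tested genes, against 16.2% of all genes (IER3 is also on this list), and 0 of 12 were called between the fractions. The ETS factor ETV4 measured 11.7, 2.63 and 2.79 FPKM in CD20-negative and 9.03, 4.41 and 5.02 FPKM in CD20-positive replicates 1 to 3. SPRY4, an inhibitor of receptor signalling chosen after its values were seen, measured 2.21 and 2.05 FPKM in the replicate 1 libraries and 0.454 to 0.893 FPKM in the others. For ETV4 and SPRY4 the replicate 1 libraries of both fractions lay close together, where those of FOS, JUN, FOSB and EGR1 differed by 2.13 to 6.37 times, and those of IER3 by 2.28 times in the other direction. Those of the remaining members also lay close. JUNB, FOSL1, IER2 and ATF3 were 1.11 to 1.30 times higher in the CD20-negative library, and JUND 1.32 times higher in the CD20-positive one. The contrast with ETV4 and SPRY4 was not tested. DUSP4, DUSP6 and SPRED2 were called as well, each highest in replicate 1 of both fractions, and SPRY1 was lowest there.

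Heat shock genes that often accompany dissociation had 13 of 15 tested, with 0 called without the block. Their median log2 change was -0.30, with 9 below and 4 above 0, and the fractions did not overlap for 4 of the 13 (30.8%), against 15% of all tested genes. With the block, where 5.83% of all genes were called, 1 of the 13 was. That gene was HSPE1, the mitochondrial co-chaperonin, at 72.1, 47.9 and 49.6 FPKM in CD20-negative and 29.9, 31.8 and 18.8 FPKM in CD20-positive replicates 1 to 3 (limma with the block, adjusted p = 0.00768). HSPA8, HSPB1 and HSP90AB1, the most abundant per kilobase, and HSPD1 and HSPA5, next by p, were not called for the fraction or the replicate number. The latter was called for 2 of the 13 against 16.2% of all genes, UBB and DNAJB4, named after their values were seen. Replicate 1 was the highest of both fractions for 8 of the 13, against 31% of all genes. Replicate 3 was the lowest of both for 8, against 15.1%. CD20-negative replicate 1 was the highest of all 6 libraries for 9, against 23.2%. HSPA1A was listed at 0 and HSPA1B at up to 0.0263 FPKM. These near-identical copies can lose reads that match both, so their values are uncertain. The 16 genes of the signal inputs had 14 tested and 0 called between fractions, with log2 changes of 0.35 for MRTFA and -0.27 for CREM, neither of which overlapped between the fractions. No overlap was found for 3 of the 14, against 15% of all tested genes. ELK1, MAPK3 and CREM were the highest of this list per kilobase. The replicate number was called for 1 of the 14, ELK3, a lower share than the 16.2% of all genes. AP-1 dimer partners had 13 of 17 tested and 0 called between fractions. The replicate number was called for 1 of the 13, against 16.2% of all genes. That gene, MAFK, was at 47.1 and 55.1 FPKM in replicate 1 and 90.2 to 141 FPKM elsewhere. ATF4, next to MAFK in level per kilobase, was at 75.9 to 89.7 FPKM. ATF4 stress response genes had 9 of 12 tested and 0 called between fractions. The replicate number was called for 3 of the 9, against 16.2% of all genes. These were STC2, TRIB3 and CHAC1, which like ELK3 are named after their values were seen.

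Genes described as AP-1 targets had 9 of 14 tested, with 0 called without the block. With the block, where 5.83% of all genes were called, 2 were, both higher in CD20-positive libraries. The replicate number was called for 4 of the 9, against 16.2% of all genes. PLAUR, the urokinase receptor, measured 9.61, 8.52 and 7.61 FPKM in CD20-negative and 13.6, 13.5 and 14.05 FPKM in CD20-positive replicates 1 to 3 (limma with the block, adjusted p = 0.0239). PLAU, its ligand urokinase, measured 18.2, 8.23 and 7.54 FPKM in CD20-negative and 29.4, 10.4 and 13.7 FPKM in CD20-positive replicates 1 to 3 (limma with the block, adjusted p = 0.0366). It was highest in replicate 1 of both fractions. FOS, FOSB, JUN and EGR1 were higher in the CD20-negative library of replicate 1, whereas PLAU was higher in its CD20-positive library.

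By pattern over the 6 libraries, the genes most like FOS were JUNB, EGR1 and IER2 (Pearson r = 0.977, 0.976 and 0.969 of log2(FPKM + 1), out of 4206 protein-coding genes averaging 10 FPKM or more). All 3 are members themselves. For EGR1 they were TAF11, FOS and HNRNPK (r = 0.984, 0.976 and 0.966), for ATF3 UGDH, PLEKHA2 and G3BP2 (0.996, 0.992 and 0.992), and for JUND ZDHHC12, VIM and CD70 (0.986, 0.986 and 0.985). These are descriptions over libraries that share their scaling: 51 genes had r above 0.9 with FOS and 328 with ATF3.

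Other markers also moved with replicate 1. Among 8 fibroblast and endothelial markers PDGFRB was at 7.54 and 13.4 FPKM in the replicate 1 libraries and 1.70 to 2.95 FPKM elsewhere, while PDGFRA, DCN and LUM did not exceed 0.0421 FPKM and KDR was listed at 0. The summed level of that list was 2.70 to 8.91 FPKM in CD20-negative and 4.55 to 15.0 FPKM in CD20-positive libraries. The 10 B-lineage markers summed to 4.08 to 7.58 and 6.22 to 8.39 FPKM, the 8 leukocyte markers to 0.708 to 1.80 and 0.909 to 2.42 FPKM, and the 8 melanocytic markers to 11.1 to 21.4 and 17.4 to 35.7 FPKM. PMEL was lowest in replicate 1 of both fractions. Among CD20-negative libraries the mitochondrial share was lowest in replicate 1 (4.25%), where FOS was highest, and among CD20-positive ones it was highest there (20.6%). The part of these differences in the immediate-early values was not tested.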

How the data were processed

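Polyadenylated RNA of 3 CD20-positive and 3 CD20-negative libraries, grouped by their titles, was sequenced. The deposited table names no unit. Its values behave as FPKM that the authors scaled by sizes of their own, which differ from the recovered fragments. Multiplied by exon length in GENCODE release 29, 98.1 to 98.6% of low values (up to 20 fragments, tolerance 0.02) were whole multiples of 1 step per library, which gave the recovered fragments. GRCh38, the aligner HISAT2, the counter featureCounts 1.5.0 and DESeq2 are named per the submitters' processing notes. For their settings and strand option, nothing is given in the sources used here. Of 58395 genes 58275 matched GENCODE.

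The 13155 genes averaging 1 FPKM or more were tested with limma 3.58.1 (trend, robust prior) on log2(FPKM + 1), CD20-positive minus CD20-negative, two-sided, Benjamini-Hochberg adjustment over all of them, threshold 0.05. This scale understates changes of low genes. Single values had exact permutation tests. The paired fit adds the replicate number as a block (2 residual degrees of freedom per gene), so its limma spread draws in part on other genes. Without replicate 1 or 3, or at 10 FPKM, the spread of the members called came almost wholly from the trend over all genes. Their p-values there do not measure the agreement of a gene's own pairs. Deviations from group means correlated at 0.67, 0.24 and 0.51 between libraries numbered 1, 2 and 3, all above 0.1, which was read as pairing. CD20-negative replicate 2 with CD20-positive replicate 3 (0.43) and CD20-negative replicate 3 with CD20-positive replicate 2 (0.40) also passed 0.1. That mark therefore cannot show that replicates 2 and 3 are paired as numbered. Replicates 2 and 3 are not told apart, and their pair differences follow the numbers alone. Named were all 10 members, 3 genes of each list by smallest p and 3 by highest mean, and the 3 genes most like FOS and JUND (the highest of the FOS and JUN groups), EGR1 and ATF3 in pattern. A gene of the AP-1 target list is not reported here. Others are marked as named after their values were seen. Members and lists were chosen with earlier results of these data known. Alternatives covered pseudocount, filter, scaling, prior, TMM, voom on recovered fragments, block and left-out libraries.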

Additional observations from a re-analysis of the deposited data

How the results depend on the processing

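The F test of the replicate number and the blocked fits with no filter, an ordinary prior, a pseudocount of 0.1 or TMM were added after seeing the data; the others were planned and all were run. Without the block 1 gene was called between the fractions, 2 with a pseudocount of 10, 9 with quantile normalisation, 1383 (28 higher, 1355 lower) with the FPKM total, 0 with no filter (1612 at an unadjusted p under 0.05) or voom (1229), and 0 to 322 with 1 library left out, the 322 without CD20-positive replicate 1. With the replicate block 767 genes were called (420 higher, 347 lower), 954 at a filter of 10 FPKM, 3924 (90 higher, 3834 lower) with the FPKM total, 943 without mitochondrial genes in that total, 1530 with voom, 0 with no filter (2836 at an unadjusted p under 0.05), 452 with an ordinary prior, 716 with a pseudocount of 0.1, 808 with TMM and 1 to 2141 without 1 pair (2141 without replicate 1, 1 without replicate 2, 331 without replicate 3). With the FPKM total the median over all tested genes became -0.41. The replicate number was called for 2129 genes, for 3212 with voom, 1296 at 10 FPKM, 1060 with the FPKM total, 0 with no filter and 179 to 2010 without 1 pair (179 without replicate 1). Members with no overlap between fractions numbered 0 (15% of all tested genes), 4 with the FPKM total (FOSL1, JUND, ATF3 and IER2; 46.6% of all), 1 (JUND) with that total without mitochondrial genes (17% of all) and with quantile normalisation (16.3%), and 0 to 3 with 1 library left out (18.1 to 48.4% of all; 3 without CD20-negative replicate 1, 24.1%).

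Of 270 alternative values of the members' changes 237 kept direction and side of the threshold, 26 turned sign and 7 passed. Scaling turned JUND to -0.32 (FPKM total, with and without the block) and, without mitochondrial genes in the total, JUNB to 0.060 and IER2 to 0.036, also with the block. Quantile normalisation turned JUNB to 0.090. The 7 were EGR1 3 times, JUNB, ATF3 and IER2 in the blocked fit with the FPKM total (3 of 10, where 29.8% of all genes were called, nearly all lower), and IER3. Leaving out libraries gave FOS -1.01 to 0.41, FOSB -0.97 to 0.32, FOSL1 -0.27 to 0.11, JUN -0.62 to 0.82, JUNB -0.45 to 0.40, EGR1 -1.28 to 0.03 and IER2 -0.24 to 0.12. In the paired fit without replicate 1, FOS turned to 0.029, FOSB to 0.19, JUN to 0.42, JUNB to 0.12 and IER2 to 0.0021. EGR1 turned to 0.027 without CD20-negative replicate 1. The cause was not tested. Depth limits FOSB (44 to 101 fragments outside CD20-negative replicate 1) and IER3 (17 to 75).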
